A study of Mus musculus with 72 samples.

Results

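The livers of 5 septic mice given mesenchymal stem cells were compared with the livers of 5 septic mice given saline, which are 10 of the 72 arrays of the study. Members were taken by label: the liver columns marked MSC and those marked CLP, over the 22504 probes (of 45255 with complete values) whose values follow the column names. All mice were female C57Bl/6J. In both arms the cecum had been ligated and perforated (CLP), which spills gut bacteria into the abdomen. At 6 h after surgery the animals received, through an inserted cannula, either saline or 250000 cells in 100 µL, and organs were taken at 28 h. The cells were cultured from a frozen vial of mesenchymal stem cells (MSCs) of male C57Bl/6J mice and used at passages 8 to 11. A further 5 livers came from sham-operated mice given saline and entered the same statistical model, and kidney, lung and heart arrays of the same 15 mice were used for comparison between organs. The stated aim was to find transcripts that accompany lower inflammation after the cells. The design text gives 4 animals per group where the labels number 5 livers per arm, and the tissue field of the labels disagrees with title, source and description for liver arrays, so the latter were used.

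The organ label was checked: the summed signal of 7 hepatocyte markers lay between 16.3 and 16.8 log2 in the CLP livers and between 16.5 and 16.8 in the MSC livers, against at most 12.5 in any kidney, lung or heart array. Values are log2 intensities, so a difference of 1 is a doubling, and each difference is given as MSC minus CLP with its standard error (SE). A call means a Benjamini-Hochberg adjusted p below 0.05 in limma, a linear model fitted over all probes, with 5 livers per arm. The arrays give no detection p here, and probes were tested where they exceeded 6 log2 in at least 5 of the 15 livers. Each liver is a mixture of cells, in which fewer cells of a type and less RNA per cell cannot be told apart.

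The liver answers sepsis by secreting acute phase proteins under the control of cytokine signals, while it lowers much of the metabolic program of hepatocytes: bile acid transport, amino acid breakdown, fatty acid oxidation and drug metabolism. Bacterial products act on Kupffer cells, endothelium and hepatocytes through Toll-like receptors and the adaptor MyD88, and chemokines made there recruit neutrophils. Mesenchymal stem cells release factors that dampen such responses in macrophages and other immune cells.

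Of 9012 probes tested, 273 were higher (3.03%) and 264 lower (2.93%) in MSC livers (5.96% in either direction), and the smallest adjusted p was 0.0419. The calls rose or fell by a median of 0.87 log2, and 129 rises but 60 falls reached 2-fold. The 5 MSC livers lay entirely above or entirely below the 5 CLP livers at 274 probes (3.04%), 110 above (1.22%) and 164 below (1.82%). In the same model 43.8% of probes were called for CLP against sham and 20.3% for MSC against sham; these comparisons share arrays with the first. The count depended on single livers: it was 2731 (30.3%) without the CLP liver of mouse 107C and 352 without the MSC liver of 16M. Leaving out one of the remaining 13 livers, sham livers included, gave 0 calls in limma each time (1979 to 2589 at an unadjusted p below 0.05). A limma fit of the MSC and CLP livers alone, without the less variable sham livers, also called 0 (smallest adjusted p 0.119). The calls thus rest on a spread shared with the sham livers. The 537 calls were all among the 2731, in the same direction. The liver of 107C lay 0.79 log2 (root mean square over tested probes) from the mean of the other CLP livers, against 0.36 to 0.56 for the other CLP livers. It lay inside the range of the MSC livers at 340 of the 537 called probes (63.3%), where each other CLP liver lay inside it at 4 to 16. Calls select probes at which most CLP livers lie outside that range, so the low counts of the others follow in part from the selection. The share over all tested probes was not counted. Because the calls depended on 107C, counts for most lists are given with and without it. Without 107C 15.5% of the 6107 genes tested passed as higher and 16.4% as lower. The list counts without 107C are to be read against these shares. Mouse 107C was singled out by these same values. Leaving out a CLP liver that lies toward the MSC livers widens differences and narrows the CLP spread. All adjusted p and passes given without 107C are therefore descriptions and do not stand as calls.

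**Figure D1:**
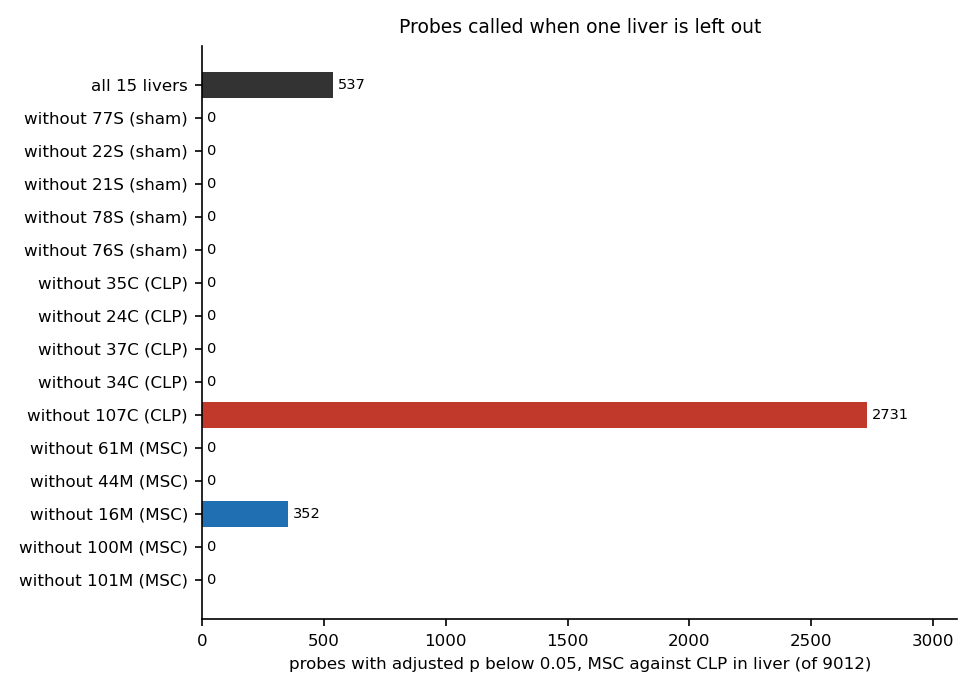
Number of probes (of 9012) with adjusted p below 0.05 for MSC against CLP in liver, with all 15 livers and with each one left out. The bar without CLP mouse 107C reaches 2731, that without MSC mouse 16M reaches 352, and every other omission gives 0.

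The chemokine Cxcl2, which draws neutrophils through the receptor CXCR2, showed the deepest fall among called probes with separate arms and 1 gene symbol. Of 82 called falls with separate arms 66 had 1 gene symbol, as had 55 of 68 such rises, and the others were not ranked. Its level was 9.57, 10.002, 8.84, 8.76 and 8.12 log2 in the CLP livers of mice 35C, 24C, 37C, 34C and 107C, and 5.98, 7.78, 6.99, 7.69 and 6.96 in the MSC livers of 61M, 44M, 16M, 100M and 101M. All MSC livers lay below all CLP livers. The difference was -1.98 (SE 0.36, adjusted p 0.0419, 3.94-fold lower). Sham livers stood at 5.10 ± 0.39 (SD, n = 5), under the floor of 6, and MSC livers at 7.08 ± 0.72, above sham (adjusted p 0.00104) by an amount that the low sham signal leaves uncertain. Myd88, the adaptor of most Toll-like receptors and of the interleukin-1 receptor, stood at 12.35, 12.62, 12.30, 12.64 and 11.81 in the CLP livers and at 11.29, 11.73, 11.53, 11.60 and 11.59 in the MSC livers. The arms again did not overlap, and the lowest CLP liver was that of 107C. The difference was -0.79 (SE 0.16, adjusted p 0.0419), and MSC livers remained 0.87 above sham livers (adjusted p 0.00117). Pde4b, a phosphodiesterase that degrades cyclic AMP in immune cells and others, was at 10.75, 10.58, 10.35, 8.95 and 8.64 in CLP livers and between 7.58 and 8.62 in MSC livers. Its difference was -1.68 (SE 0.35, adjusted p 0.0419), and sham livers lay at 8.90 ± 0.12.

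The promoter of Cxcl2 is shown because Cxcl2 was the listed cytokine gene called lower. The window runs from 250 bases before to 50 bases from the annotated start on (RefSeq, build GRCm38.p6, chr5:90903649-90903948, plus strand), and capitals mark overlapping matches, at bases 154 to 162 and, on the other strand, 156 to 164, to GGGANNTTC, a shortened pattern of the type bound by NF-kB factors. The pattern was searched on both strands and is present in 3.94% of the 32851 promoters of the same length in that table.
Cxcl2: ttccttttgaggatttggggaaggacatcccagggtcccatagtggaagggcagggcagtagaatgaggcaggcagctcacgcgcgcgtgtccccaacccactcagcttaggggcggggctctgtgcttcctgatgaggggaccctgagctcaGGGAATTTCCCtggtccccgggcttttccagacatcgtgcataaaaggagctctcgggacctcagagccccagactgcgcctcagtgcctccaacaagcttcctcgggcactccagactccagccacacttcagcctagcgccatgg

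Of the 11 cytokine and chemokine genes tested, Cxcl2 was the one called, and the list's median difference was -0.25 against -0.01 over all 6107 genes tested, of which 3.06% were called higher and 2.95% lower (6.01% in either direction). Il10, an anti-inflammatory cytokine, stood at 7.08 in CLP and 5.87 in MSC livers (difference -1.21, adjusted p 0.0599, and 0.000412 without 107C), the latter mean under the floor. Il1b stood at 9.12 and 8.23 (adjusted p 0.118, and 0.037 without 107C), and Cxcl1, another neutrophil chemokine, at 14.34 and 14.09 (adjusted p 0.799). Without 107C 3 of the 11 passed as lower and 1 as higher, where 16.4% and 15.5% of all genes did. Of 16 innate receptor and signalling genes, Myd88 was called lower and none higher, with a median of -0.42. Traf6, Rela and Il1r1 had differences of -0.64, -0.53 and -0.57 and were not called (adjusted p 0.106, 0.093 and 0.14), and without 107C Traf6 and Rela passed (0.00275 and 0.00485). That list then had 4 lower and 1, Irak1, higher, against 16.4% and 15.5% of all genes. Of 16 interferon-stimulated genes 1 was called, and it moved the other way: Psmb9, a subunit of the immunoproteasome, had a difference of 1.23 (SE 0.29, adjusted p 0.0419), from 7.46 ± 0.76 to 8.69 ± 0.32. In its CLP arm the liver of 107C stood at 8.79 and the other livers between 6.90 and 7.32. Gbp2 and Rsad2, at -0.96 and -1.04, were not called (adjusted p 0.126 and 0.129), and passed without 107C (0.0144 and 0.0297), when 3 of the 16 were lower and 2, Psmb9 and Psmb8, higher.

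Of 15 acute phase genes tested 0 passed in either direction, where 6.01% of all genes did, and their median difference was 0.01. Saa3 stood at 9.47 in sham, 14.89 in CLP and 14.77 in MSC livers (95% interval of the MSC minus CLP difference -0.69 to 0.44), and Saa2 at 11.80 and 11.83 in the septic arms (interval -0.43 to 0.49). Hamp, which encodes the iron hormone hepcidin, had the smallest p of the list, at 14.42 and 14.90 (difference 0.48, SE 0.24, adjusted p 0.195). Saa1, Hp and Hpx gave means of 15.78 to 16.01 in the septic arms, near the highest value of the table, 16.03, where a change may not be measurable. Complement gave 0 calls among 14 genes and coagulation 0 among 17, also to be read against 6.01%. Mbl1, a mannose-binding lectin, and Tfpi, the inhibitor of tissue factor, came closest, with differences of 0.95 (adjusted p 0.059) and 0.62 (adjusted p 0.171). A further Tfpi probe, fitted on the second deposited table described below, went the other way without a call (-0.34, adjusted p 0.465). Without 107C 4 complement genes, 3 coagulation genes and 1 acute phase gene passed as higher and 0 as lower, against 15.5% and 16.4% of all genes. Mbl1 (adjusted p 0.00115) and Lbp, which binds lipopolysaccharide (0.036), were among them.

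Cd74 and H2-Ab1, of antigen presentation on MHC class II, fell, and their means in MSC livers lay below those in sham livers too. Cd74, the invariant chain that escorts class II molecules, stood on probe ILMN_1221817 at 10.67, 9.42, 9.95, 9.61 and 9.58 in CLP livers and at 8.48, 8.81, 8.35, 8.74 and 9.14 in MSC livers. Every MSC liver was below every CLP liver (difference -1.14, SE 0.29, adjusted p 0.0419), and the mean of MSC livers was 1.54 below that of sham livers, written as MSC minus sham -1.54 (adjusted p 0.00153). The other Cd74 probe in use, ILMN_1247832, gave -1.15 (SE 0.32, adjusted p 0.0452). H2-Ab1, a class II beta chain, stood on ILMN_2913716 at 9.21, 8.23, 8.15, 8.10 and 7.77 in CLP livers and at 7.10, 6.95, 6.82, 7.36 and 7.49 in MSC livers. The difference was -1.15 (SE 0.27, adjusted p 0.0419) without overlap, and MSC minus sham was -1.74 (adjusted p 0.000316). A further H2-Ab1 probe, ILMN_2631423, gave -0.90 and was not called (adjusted p 0.0839). The class II genes looked at were picked out after these values had been seen.

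The second deposited table, the series matrix, names its columns by sample and also holds the probes whose rows do not follow the column names of the first table. Its values differ from those of the first table by a constant in each probe, so that differences are the same but levels, and the floor of 6 applied to them, stand on another scale. In a fit over its 20912 tested probes (866 called, 4.14%) all 11 class II genes looked at were measured on 21 probes, of which 7 were lower and 0 higher, from 4 genes. H2-Eb1, another class II beta chain, gave 11.23, 10.19, 10.12, 10.03 and 9.89 in CLP livers and 9.27, 8.69, 8.54, 9.32 and 9.58 in MSC livers on ILMN_1239102. These arms did not overlap (difference -1.21, SE 0.29, adjusted p 0.0477). H2-Aa, the alpha chain that pairs with H2-Ab1, had a difference of -0.99 (SE 0.27, adjusted p 0.049), and here the CLP liver of 107C, at 8.77, lay inside the MSC range of 8.17 to 8.97. Cd74 on ILMN_3089584 gave -1.20 (adjusted p 0.0477) and H2-Ab1 on ILMN_1226525 gave -1.27 (adjusted p 0.0477). None of the probes of H2-DMa, H2-DMb1, H2-DMb2, H2-Ob, H2-Eb2, H2-Oa and Ciita was called. Every probe of Ciita, the class II regulator, and of H2-Oa had means under 6 log2 in all 3 arms of the first table, where a change may not be measurable, as did 1 probe each of H2-DMb2 and H2-Eb2. The other H2-DMb2 probe was under 6 in both septic arms.

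Promoters of the class II genes H2-Eb1 and H2-Aa are shown as examples of the 4 class II genes with a probe called lower (RefSeq, GRCm38.p6). H2-Eb1 lies at chr17:34305617-34305916 on the plus strand. Its capitals mark GNAACNGAT at bases 160 to 168, the core of an X box bound by RFX factors, and CTGATTGG at bases 189 to 196, the Y box bound by NF-Y. The H2-Aa window, chr17:34287774-34288073 on the minus strand, holds the Y box at bases 200 to 207, in capitals, and no match to GNAACNGAT. An X box with other letters would be missed by this pattern, so the search does not show that H2-Aa lacks one. On both strands, 2.05% of the 32851 promoters hold these X box letters and 4.1% these Y box letters, and the matches are a description of the sequence.
H2-Eb1: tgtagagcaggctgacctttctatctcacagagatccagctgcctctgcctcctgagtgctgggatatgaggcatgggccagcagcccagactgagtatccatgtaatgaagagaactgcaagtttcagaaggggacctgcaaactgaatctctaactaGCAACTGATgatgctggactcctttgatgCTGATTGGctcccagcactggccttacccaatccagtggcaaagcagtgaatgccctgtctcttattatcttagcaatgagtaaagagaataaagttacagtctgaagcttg
H2-Aa: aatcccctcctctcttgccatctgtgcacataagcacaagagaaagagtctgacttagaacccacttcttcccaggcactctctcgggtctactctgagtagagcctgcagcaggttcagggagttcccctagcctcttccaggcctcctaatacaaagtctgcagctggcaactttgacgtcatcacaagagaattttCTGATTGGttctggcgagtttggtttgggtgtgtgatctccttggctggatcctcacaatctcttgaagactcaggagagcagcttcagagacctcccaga

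Markers of the cells that carry class II molecules were measured beside these falls. Of 7 tested macrophage and Kupffer cell genes 0 were called, with Adgre1 at 6.28 in CLP and 6.91 in MSC livers (adjusted p 0.329) and Clec4f, a Kupffer cell lectin, at 5.53, under the floor, and 6.04 (adjusted p 0.318, and 0.0194 without 107C). The summed signal of that list ranged from 11.3 to 12.5 log2 in CLP and from 11.18 to 12.97 in MSC livers. The B cell genes Ms4a1, Pax5, Cr2 and Blk were all under the floor. Dendritic cell markers were not listed, and their part in the class II falls was not tested.

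The other probes of the 12 deepest falls with separate arms and 1 gene symbol were in genes with varied roles. Lilr4b, a receptor of myeloid cells, stood at 7.54 ± 0.54 in CLP and 6.39 ± 0.48 in MSC livers (difference -1.15, adjusted p 0.0419). Msn, which encodes the actin linker moesin, stood at 7.26 ± 0.53 and 6.19 ± 0.45. Kmt5a, a histone H4 methyltransferase, gave 8.48, 8.52, 8.25, 8.39 and 7.52 in CLP livers and 6.90 to 7.45 in MSC livers (difference -1.12, SE 0.19). Its CLP minus sham difference was 0.02 (adjusted p 0.939), and MSC minus sham was -1.10 (adjusted p 0.000687). Khdc4 (difference -1.16), the helicase gene Ddx31 (-1.05), the nuclear import gene Ipo7 (-1.0) and the aspartic protease gene Napsa (-0.91) completed the group, each with an adjusted p of 0.0419. Mean levels of Ddx31 and Napsa in MSC livers were 5.95 and 5.64, under the floor of 6, so the sizes of these differences are uncertain. Counted from the floor, their CLP means lay 0.99 and 0.56 log2 above it, and Napsa was under the floor in sham livers too (5.40).

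**Figure D2:**
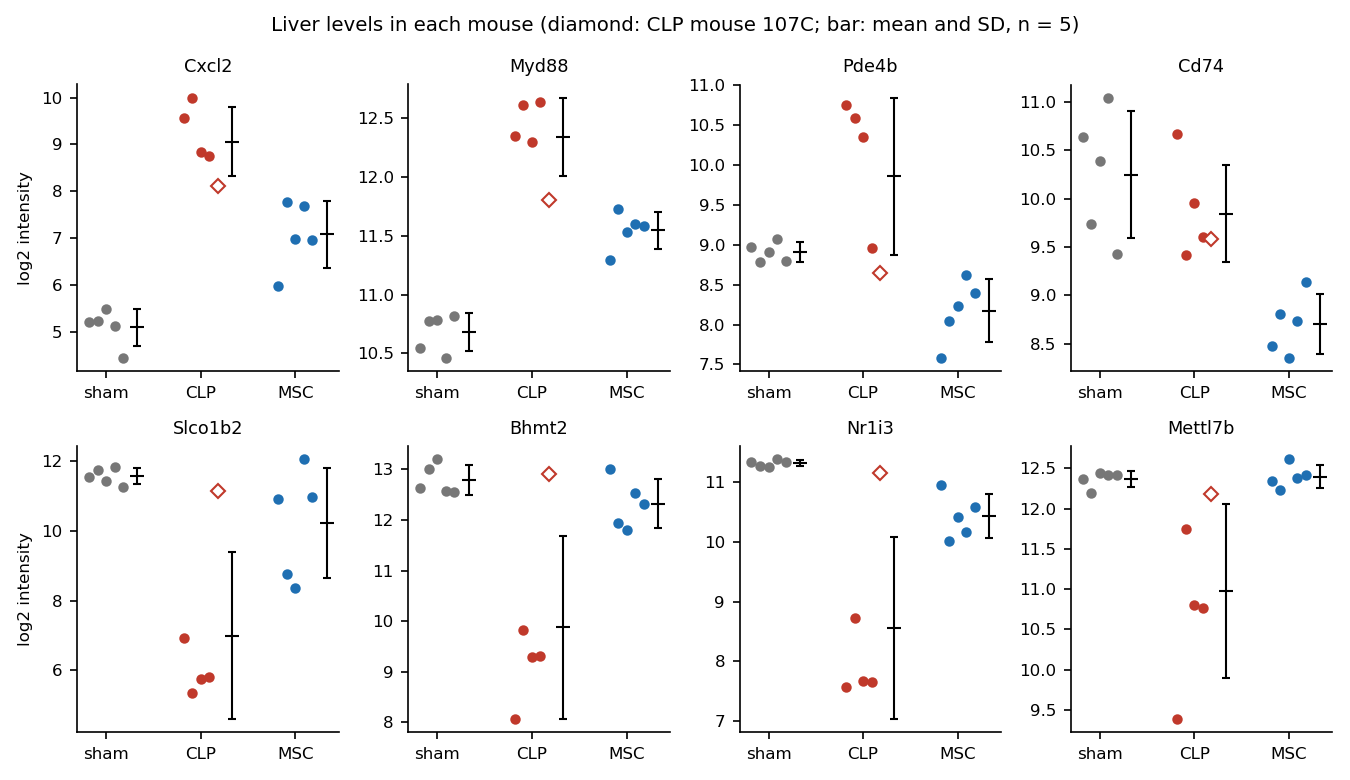
Log2 intensity of 8 genes in each sham, CLP and MSC liver (points), with mean and SD of 5 livers beside them; the open diamond is CLP mouse 107C and Cd74 is probe ILMN_1221817. Cxcl2, Myd88, Pde4b and Cd74 lie lower in every MSC liver than in every CLP liver, while for Slco1b2, Bhmt2 and Nr1i3 the liver of 107C lies at 11.15, 12.91 and 11.14, among or above the MSC livers.

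Of 12 tested genes of bile acid handling, the transporter genes Slco1b2 and Abcg5 rose. Slco1b2, the organic anion transporter that takes bile acids and bilirubin from blood, stood at 6.91, 5.34, 5.75 and 5.80 in the CLP livers of 35C, 24C, 37C and 34C but at 11.15 in that of 107C, and at 10.92, 8.76, 8.37, 12.06 and 10.96 in MSC livers. The difference was 3.23 (SE 0.90, adjusted p 0.0466, 9.36-fold), or 4.27 without 107C, against sham livers at 11.57 ± 0.23. The CLP livers of 24C, 37C and 34C lay under the floor of 6, so the sizes of both differences are uncertain. Abcg5, which with its partner exports sterols into bile, rose by 1.73 (SE 0.39, adjusted p 0.0419), from 9.53 ± 1.09 to 11.26 ± 0.38. The list gave 2 higher and 0 lower, where 3.06% and 2.95% of all genes were, with a median of 0.52. Without 107C 8 were higher and 1 lower, against 15.5% and 16.4% of all genes. Cyp7a1, the rate-limiting enzyme of bile acid synthesis, stood at 12.29 in sham, 5.40 in CLP and 5.44 in MSC livers; both septic means lie under the floor of 6, where a difference may not be measurable. Abcb11, the bile salt export pump, stood at 6.10 and 7.88 and was not called (adjusted p 0.107, and 0.000926 without 107C).

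Of 28 tested genes of amino acid breakdown 3 were higher and 0 lower, where 3.06% and 2.95% of all genes were, with a median of 0.59. Bhmt2, which remethylates homocysteine, stood at 8.06, 9.82, 9.29, 9.31 and 12.91 in the CLP livers of 35C, 24C, 37C, 34C and 107C and at 13.01, 11.95, 11.80, 12.54 and 12.31 in MSC livers. The liver of 107C was the CLP liver inside the MSC range, and the difference was 2.44 (SE 0.60, adjusted p 0.0419, 5.44-fold), or 3.20 without 107C. Kmo, of the kynurenine pathway, rose by 1.40 (SE 0.35, adjusted p 0.0419), and Ftcd, of histidine breakdown, by 0.91 (SE 0.25, adjusted p 0.0446). Cps1, the first enzyme of the urea cycle, stood at 11.57 in CLP and 13.10 in MSC livers without a call (adjusted p 0.143, and 0.0103 without 107C). The 7 hepatocyte markers, among them Cps1, had a median difference of 0.30, and all 7 had higher means in MSC livers, as had 2945 of all 6107 genes. On the series matrix 13 hepatocyte markers had a median difference of 0.08, against -0.02 over all genes there, and 0 were called. The part of hepatocyte markers in the rises of metabolic genes was not tested. Without 107C 14 of the 28 genes passed as higher and 0 as lower, where 15.5% of all genes tested passed as higher.

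Fatty acid oxidation and ketone body genes gave 3 calls of 22, all higher. Calls of this list and of the lipid and glucose lists that follow are to be read against 3.06% higher and 2.95% lower over all genes. Bdh1, which makes the ketone body 3-hydroxybutyrate, stood at 7.77, 9.80, 9.09, 9.10 and 11.57 in CLP livers and at 11.35, 11.24, 11.00, 11.69 and 11.16 in MSC livers. The difference was 1.82 (SE 0.46, adjusted p 0.0419), and sham livers lay at 11.71 ± 0.27. Decr1 and Eci1, auxiliary enzymes for unsaturated fatty acids, rose by 1.30 (adjusted p 0.0443) and 0.76 (adjusted p 0.0495). Pdk4, which holds back pyruvate oxidation, stood at 12.60 and 11.27 without a call (adjusted p 0.231, and 0.00312 without 107C). The cholesterol list had the highest median of these lists, 0.81, but 1 call among 14 genes: Lcat, which esterifies cholesterol in plasma, rose by 0.79 (SE 0.22, adjusted p 0.047). The synthesis enzymes Dhcr7 and Nsdhl had differences of 1.67 (adjusted p 0.0672) and 1.63 (adjusted p 0.059), and were among the 8 of the 14 that passed as higher without 107C. Fads2, a desaturase of polyunsaturated fatty acids, rose by 1.59 (SE 0.27, adjusted p 0.0419), the single call among 12 lipogenic genes. Its CLP livers stood at 8.81, 9.07, 8.51, 8.05 and 9.84 and its MSC livers at 10.43, 10.93, 9.79, 10.49 and 10.59, so that 107C overlapped one of them. Among 10 apolipoprotein genes Apon rose by 1.49 (adjusted p 0.0419), and among 10 genes of glucose metabolism Pck1, the gluconeogenic carboxykinase, by 1.25 (adjusted p 0.0419).

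None of 17 cytochrome P450 genes was called, where 6.01% of all genes were, and their median was -0.13. Cyp2c29 had the smallest p, at 7.57 in CLP and 6.38 in MSC livers (difference -1.19, adjusted p 0.06, and 0.00948 without 107C), with sham livers at 9.21, and Cyp3a13 stood at 11.44 and 12.41 (adjusted p 0.0772, and 0.00325 without 107C). Without 107C 3 of the 17 were higher and 4 lower, where 15.5% and 16.4% of all genes were. On the series matrix 0 of 32 cytochrome P450 genes were called, and their median was 0.12, of the other sign. There 6 were higher and 6 lower without 107C, where 13.6% and 14.1% of all genes were. Gstt2, a glutathione transferase, rose by 0.70 (adjusted p 0.0419), the 1 call of 16 conjugation genes. Their median was 0.04, with 8 differences above 0 and 8 below. On the series matrix 4 of 32 conjugation genes were higher and 1 lower (2.27% and 2.14% of all genes there), with a median of 0.01. Ugt2b35 (1.09), Gstm4 (1.10) and Tpmt (1.28) were among the higher, and Gsta2 (-1.28) was the lower one. Inmt (-2.27) and Gsta4 (-1.52) were not called there (adjusted p 0.0649 and 0.0541). Nr1i3, the nuclear receptor CAR that induces many of these enzymes, stood at 7.56, 8.73, 7.66, 7.66 and 11.14 in CLP livers and at 10.96, 10.01, 10.42, 10.17 and 10.58 in MSC livers. It was the 1 of 10 liver transcription factors called (difference 1.88, SE 0.50, adjusted p 0.0433, difference without 107C 2.52), and 107C exceeded every MSC liver. Hnf4a and Cebpa had differences of 0.30 and 0.27 (adjusted p 0.139 and 0.583).

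**Figure D3:**
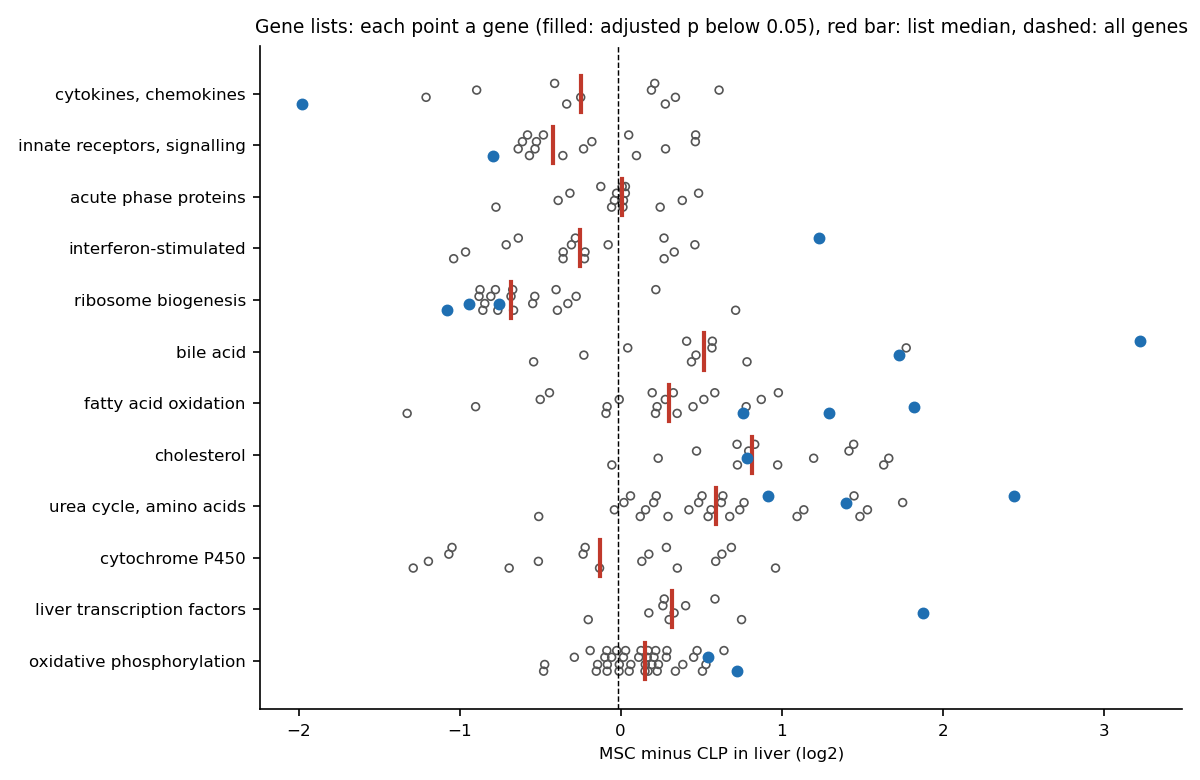
MSC minus CLP difference in liver (log2) of each tested gene in 12 lists; filled points are called, red bars are list medians and the dashed line is the median of all genes. Medians run from -0.68 for ribosome biogenesis to 0.81 for cholesterol.

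Genes of ribosome biogenesis, which make and process ribosomal RNA, had the lowest median of all 29 lists, -0.68, and 19 of 21 tested genes had a difference below 0. CLP minus sham had a median of 1.04 in the same list. Calls numbered 3 lower and 0 higher, where 2.95% and 3.06% of all genes were called. Rrp1b stood at 10.49, 9.98, 10.55, 9.98 and 8.64 in CLP livers and at 8.65, 9.07, 9.25, 8.61 and 8.66 in MSC livers (difference -1.08, SE 0.28, adjusted p 0.0425). Ppan had a difference of -0.94 (SE 0.27, adjusted p 0.0476), and Heatr1, of the small subunit processome, of -0.75 (SE 0.18, adjusted p 0.0419). In Heatr1 the arms did not overlap, while in Rrp1b the liver of 107C lay inside the MSC range. Without 107C 17 of the 21 were called lower and 1 higher, against 16.4% lower and 15.5% higher over all genes, and the nucleolar proteins Nop58, Npm1 and Ddx21 were among the 17, with differences of -1.19, -1.12 and -1.22. The exception was Tsr1, with 0.71 in all livers (adjusted p 0.0516) and 0.92 without 107C (adjusted p 0.000805). On the series matrix 7 of 29 genes were lower and 0 higher (2.14% and 2.27% of all genes there), among them Nop56 (difference -1.48, adjusted p 0.0477) and Gar1 (-1.22, adjusted p 0.0483). Of 25 cytosolic ribosomal protein genes, Rps13 was called lower (difference -0.66, adjusted p 0.0419), with a list median of -0.03.

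**Figure D4:**
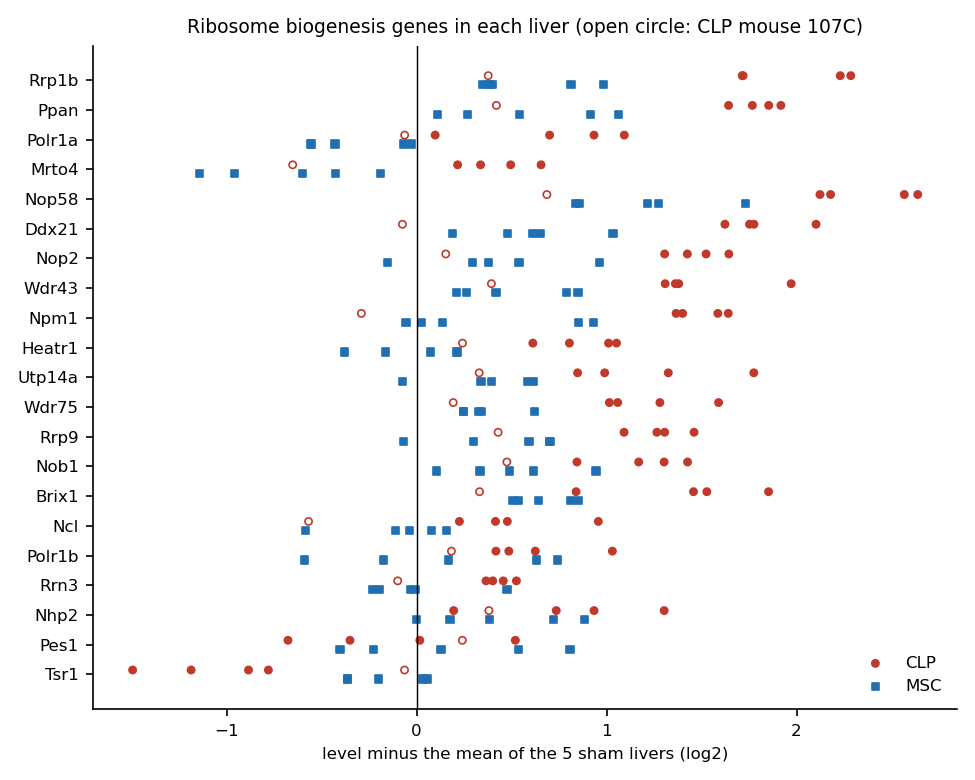
Log2 level minus the sham mean of 21 ribosome biogenesis genes in each CLP liver (circles, 107C open) and MSC liver (squares). For most genes the CLP livers other than 107C lie to the right of the MSC livers, and for Tsr1 they lie to the left.

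The 12 largest rises with separate arms and 1 gene symbol were a mixed group. Mettl7b, a thiol methyltransferase, stood at 9.38, 11.74, 10.80, 10.76 and 12.18 in CLP livers and within 12.23 to 12.62 in MSC livers, with sham livers at 12.37 ± 0.10 (difference 1.42, SE 0.35, adjusted p 0.0419). Tpi1, the glycolytic triosephosphate isomerase, stood at 10.66 ± 0.85 in CLP, 12.03 ± 0.08 in MSC and 11.87 ± 0.15 in sham livers. Ikbip stood at 7.40 ± 0.61 in CLP, 8.82 ± 0.21 in MSC and 7.77 ± 0.23 in sham livers (MSC minus sham 1.04, adjusted p 0.00503). Esrrb and Cbfa2t3 also had MSC means above sham means, by 0.53 and 0.75, without a call (adjusted p 0.0511 and 0.0746). Ackr4, a scavenging chemokine receptor, rose by 1.27 (SE 0.25) and Cav1, the coat protein of caveolae, by 1.30 (SE 0.33), each with an adjusted p of 0.0419. The mean of Cav1 in CLP livers, 4.79, was under the floor, as were those of Esrrb and Them7, so the sizes of these 3 rises and their ranks are uncertain. Counted from the floor, MSC means lay 0.09 log2 above it for Cav1, 0.95 for Esrrb and 0.39 for Them7. The remaining rises were D630004K10Rik (1.43), Nagk (1.20), Esrrb (1.17), Cbfa2t3 (1.11), Them7 (1.07), Arl3 (1.06) and Cdk10 (0.99), with adjusted p of 0.0419 to 0.0448.

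In the remaining lists, read against 3.06% higher and 2.95% lower over all genes, oxidative phosphorylation had 2 of 41 higher, Ndufb10 (0.72) and Cox6c (0.54), of complexes I and IV. Peroxisome genes had 2 of 14 higher, Hacl1 (1.19) and Pxmp4 (0.60), and mitochondrial ribosome genes 2 of 37, Mrpl34 (0.94) and Mrps15 (0.77). Igfbp4 rose by 1.14 among 13 growth hormone axis genes. Ccnd1, cyclin D1, rose by 1.19 as the 1 call among 17 cell cycle genes. That list leaned the other way, with 15 of the 17 differences below 0 and a median of -0.36. Without 107C 5 of the 17 passed as lower and 1 as higher, against 16.4% and 15.5% of all genes. Bcl2l1, which encodes the anti-apoptotic protein Bcl-xL, was lower (difference -0.95, adjusted p 0.0499) among 13 apoptosis genes, while its other tested probe gave -0.60 and was not called (adjusted p 0.116). Lists without a call were the tricarboxylic acid cycle (10 genes; smallest p Fh1, difference 0.57), the proteasome (15; Psmb2, -0.29), endoplasmic reticulum stress (19; Trib3, -1.30), oxidative stress (9; Hmox1, -1.07) and the circadian clock (11; Dbp, 1.15), with adjusted p of 0.053 to 0.175 for these genes. Without 107C Fh1 (adjusted p 0.0307), Trib3 (0.0164), Hmox1 (0.00479) and Dbp (0.0012) passed. Over all lists, 23 of 481 distinct genes tested were called higher and 7 lower, where 3.06% and 2.95% of all genes were. Each gene entered its list with 1 probe; a further probe was called for Etfa (0.67, adjusted p 0.0481), Scp2 (1.10, adjusted p 0.0437), Apoc2 (1.04, adjusted p 0.0433) and Wdr75 (-0.64, adjusted p 0.0419), which the counts for fatty acid oxidation, bile acid, apolipoprotein and ribosome biogenesis genes do not include.

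Markers of other cell types were counted beside these, and their calls are to be read against 3.06% higher and 2.95% lower over all genes. All 6 tested neutrophil genes had lower means in MSC livers, as had 3162 of all 6107 genes, and 0 were called (median -0.46). Camp stood at 7.33 in CLP and 6.67 in MSC livers (adjusted p 0.11). On the series matrix 0 of 13 neutrophil genes were called, with a smaller median of -0.21. There 2 of the 13 were lower without 107C, against 14.1% of all genes. Without 107C 3 of the 6, Ngp, Camp and Chil3, passed as lower (adjusted p 0.0123, 0.0247 and 0.0298). Their summed signal was 9.92 to 11.1 log2 in CLP, 9.69 to 10.3 in MSC and 8.55 to 9.51 in sham livers, and 107C was the lowest CLP liver. Mpo and Cxcr2 of that list were under the floor, and the part of neutrophils in the fall of the receptor's ligand Cxcl2 was not tested. Of 8 endothelial genes 2 were higher and 0 lower: Stab1, a sinusoidal scavenger receptor, by 0.98 on one probe (adjusted p 0.0425) but with a difference of -0.03 on its other tested probe (adjusted p 0.947), and Tek, the angiopoietin receptor, by 0.88 (adjusted p 0.0419), while Lyve1 and Kdr had differences of -0.46 and -0.35 (adjusted p 0.323 and 0.153). Lrat, which stores vitamin A in stellate cells, rose by 1.68 (adjusted p 0.0446), the 1 of 6 stellate cell genes called. Hepatocyte markers gave 0 calls of 7 (Ahsg 13.24 and 13.79, adjusted p 0.05), and without 107C Ahsg, Apob and Cps1 passed as higher. Calls numbered 0 of 4 for lymphocyte and natural killer markers (Nkg7, difference -0.37), 0 of 3 for bile duct (Cldn7, 0.38), 0 of 3 for red cell (Hbb-bt, -0.19), 0 of 1 for platelet (Gp9, -0.11), and 0 of 2 for kidney, pancreas and gut markers (Slc12a1, -0.25). The lung and heart genes listed were all under the floor.

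Of 5 tested genes that mark mesenchymal stem cells 0 were called, and Cd44 was at 9.15 in CLP and 8.58 in MSC livers (adjusted p 0.0683). Without 107C Cd44 was the 1 of the 5 that passed, as lower (adjusted p 0.0398). Male cells carry a Y chromosome that the recipients lack, and the 1 Y-linked probe tested, for Uty, stood between 6.15 and 6.42 in MSC livers, against 5.72 to 6.41 in CLP and 5.87 to 6.53 in sham livers. Probes for Sry, Zfy1, Zfy2 and Usp9y did not pass the floor for testing, and arrays set no limit on how few cells could be present.

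The same 15 mice gave kidney, lung and heart arrays, and the MSC minus CLP difference in liver was compared with that in each other organ within the mouse. Within each organ alone, limma called 2 of 8817 probes in kidney (0.0227%), 0 of 8684 in lung (0.0%) and 1 of 8820 in heart (0.0113%). At an unadjusted p below 0.05 the counts were 2393, 2261 and 1536. For the contrast of organs, 5 of 7752 probes differed between liver and kidney (0.0645%), 191 of 7339 between liver and lung (2.6%) and 0 of 7621 between liver and heart (1153 at an unadjusted p below 0.05). Without 107C these counts of contrasts were 1026, 1476 and 463. Leaving out another mouse gave 0 for kidney, except 1 without 100M, and 0 for lung, except 49 without 34C and 1 without 16M. Acsm3, a medium-chain acyl-CoA synthetase, differed by 1.82 in liver (7.89 in CLP, 9.71 in MSC) and by -0.22 in kidney, a contrast of 2.04 (SE 0.34, adjusted p 0.043). Fmo5, a flavin monooxygenase, differed by 1.87 in liver and 0.18 in kidney, and the folate carrier Slc19a1 by -1.06 in liver and 0.85 in kidney (contrast -1.90, SE 0.34, adjusted p 0.043). Ccng2 differed by 0.42 in liver and -0.84 in kidney, and Pnisr by -0.87 and 0.09. Against lung, the serpin gene Serpina3f differed by -2.61 in liver (-3.39 without 107C) and -0.35 in lung (contrast -2.26, SE 0.46, adjusted p 0.0457). In kidney and heart Serpina3f differed by -2.53 and -2.38, close to the liver (adjusted p of the contrasts 0.923 and 0.897). Cd93, an endothelial and myeloid receptor, differed by -1.50 in liver and 0.50 in lung (adjusted p 0.049), and by -0.83 in kidney and -0.21 in heart. Within liver, Cd93 was not called (adjusted p 0.05, and 0.000105 without 107C). Cyp2a5 on ILMN_2734598 was at -1.56 in liver, also not called (adjusted p 0.0649, and 0.0025 without 107C), at 0.28 in lung and at -1.54 in heart. The 4 tested probes of Cyp2a5 ranged from -1.80 to -0.13 in liver and none was called; the list used the one at -0.13. The co-chaperone gene Dnajc12 differed by 2.28 and 0.10 on one probe and by 2.21 and 0.08 on the other, and Rtp3 by 2.19 and 0.14. Without 107C the liver differences of Dnajc12 were 2.88 and 2.83 and that of Rtp3 was 2.91. For Rtp3 the CLP livers of 35C and 37C, at 5.83 and 5.02, lay under the floor of 6, so the sizes of its liver differences are uncertain.

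Several of the falls named for the liver were also contrasted with lung. Pde4b differed by -1.68 in liver and 0.09 in lung (contrast -1.77, SE 0.37, adjusted p 0.0457), but by -1.12 in kidney and -1.03 in heart, where its contrasts did not pass (adjusted p 0.18 and 0.255). Msn differed by -1.07 in liver and 0.02 in lung (contrast -1.09, SE 0.18, adjusted p 0.0457), and by -1.27 in kidney and -0.89 in heart (adjusted p of the contrasts 0.711 and 0.757). Cxcl2 had -1.98 in liver, -1.63 in kidney, -0.71 in lung and -0.58 in heart, and none of its contrasts passed (adjusted p 0.709, 0.118 and 0.267). Myd88 lay between -0.79 and -0.50 in all 4 organs. The Cd74 probe ILMN_1221817 had -1.14 in liver, -1.10 in heart, -0.38 in lung and -0.10 in kidney, with contrasts that did not pass (adjusted p 0.0888 for kidney, 0.0747 for lung and 0.985 for heart). The H2-Ab1 probe ILMN_2913716 had -1.15 in liver, -0.88 in heart, -0.17 in lung and -0.13 in kidney. Its contrast with lung passed (-0.99, SE 0.26, adjusted p 0.0497), and those with kidney and heart did not (adjusted p 0.0888 and 0.869).

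**Figure D5:**
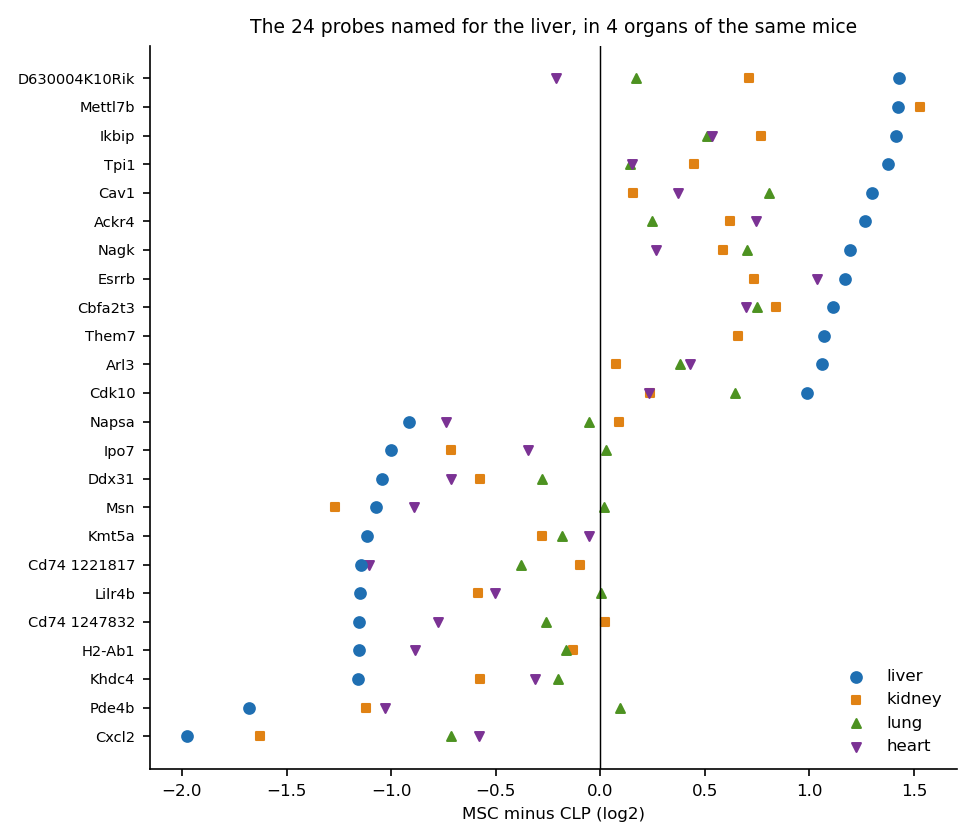
MSC minus CLP difference (log2) of the 24 probes named by rank for the liver, in liver, kidney, lung and heart of the same mice; an organ in which a probe was not tested has no point. Cxcl2 is at -1.98 in liver and -1.63 in kidney, and Mettl7b at 1.42 and 1.53, while Msn is at 0.02 in lung.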

How the data were processed

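Total RNA of each organ was labelled with biotin and hybridised to Illumina mouse arrays, per the labels' protocols. The authors deposited log2 values under the name of a non-normalized table, but the sorted values of the 60 arrays other than spleens coincide within 0.00352, so the values had been brought to a common distribution, by software not given in the sources used here. Of 45281 probes 26 have broken lines. The values of 22751 rows do not follow the column names, which was found from rare values set to 6 decimals, and 22504 rows that do were used. The series matrix equals the table plus a constant per probe (largest deviation 0.000143) and served as an alternative and for probes outside those rows. A further column was not given to any sample and was left out.

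MSC and CLP livers were compared in limma 3.58.1 (R 4.3.3) with 3 arms of 5 livers and no covariate, over probes above 6 log2 in at least 5 livers, with Benjamini-Hochberg adjustment at 0.05. Nothing says that samples were pooled. P-values measure the spread between these mice, estimated over all 3 arms together, sham livers included. The median SD over tested probes was 0.23 log2 in sham, 0.35 in CLP and 0.26 in MSC livers. The shared estimate therefore leans on sham livers that vary less than either septic arm. Precision is limited by having 5 arrays per arm. Symbols came from the platform annotation: 17370 used probes had 1 symbol, 7 several and 5127 none. A gene with several probes was represented in a list by 1 probe. Genes were named by rule: the 12 largest rises and 12 largest falls called with separate arms and 1 symbol, for each of 29 gene lists and 14 marker lists every called gene up to 4 or else the smallest p, and the 3 largest organ differences in each direction. Other list members named with values, the class II genes and the summed markers were chosen after values were seen. The members and lists were chosen with earlier results of these data known.

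Organ differences used the mouse as a block, since the labels give 4 organs the same mouse numbers. Deviations from arm means correlated at 0.28 (kidney), 0.19 (lung) and 0.13 (heart) with those of the same mouse's liver, against -0.06, -0.05 and -0.03 for other mice, over 6826 probes. The scripts were tested on simulated data. Alternatives were the floor, the arms fitted, array weights, trend and robust estimation, 75th percentile scaling, the series matrix and leaving out each liver.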

Additional observations from a re-analysis of the deposited data

Results flagged for a closer look

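Single livers stood apart from the other 4 of their arm at 21 of 258 groups of 5, over the 86 probes named by rule. Those probes were chosen from these same values and share the same livers. The count is therefore a description and cannot be set against a rate given by chance. The CLP liver of mouse 107C accounted for 15 of the 21 in the values that follow. It was the lowest CLP liver for Kmt5a (7.52, others 8.25 to 8.52), Ddx31 (6.78, others 7.02 to 7.08), Ppan (9.13, others 10.35 to 10.63), Slc19a1 (8.18, others 9.13 to 9.47), Serpina3f (9.18, others 12.54 to 13.58) and Cd93 (8.89, others 11.25 to 11.74). It was the highest CLP liver for Psmb9 (8.79, others 6.90 to 7.32), Mbl1 (12.69, others 11.06 to 11.50), Slco1b2 (11.15, others 5.34 to 6.91), Ftcd (8.44, others 7.07 to 7.32) and Tek (8.71, others 7.13 to 7.56). The same held for Acsm3 (9.91, others 7.23 to 7.60), Fmo5 (10.65, others 8.40 to 8.97) and both probes of Dnajc12 (11.41, others 8.01 to 8.97, and 10.17, others 6.77 to 7.48).

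In MSC livers, Ackr4 was high in mouse 100M (10.57, others 9.99 to 10.12) and Hmox1 in 44M (9.63, others 8.23 to 8.52). Cox6c was low in 61M (11.38, others 11.73 to 11.78), Cldn7 in 101M (6.28, others 6.87 to 7.05) and Rtp3 in 16M (7.75, others 9.03 to 9.31). In sham livers, Nagk was high in 21S (9.54, others 8.94 to 9.09).

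The MSC minus CLP difference differed between organs of the same mice in the limma test of the difference itself. Liver minus kidney it was -1.90 for Slc19a1, -0.96 for Pnisr, 1.69 for Fmo5, 2.04 for Acsm3 and 1.26 for Ccng2. Liver minus lung it was -2.26 for Serpina3f, -1.995 for Cd93, -1.85 for Cyp2a5, 2.05 for Rtp3 and 2.17 and 2.13 for the Dnajc12 probes.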

How the results depend on the processing

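Against 537 probes called, limma called 0 without a filter on dim probes (3330 at an unadjusted p below 0.05), 0 with the MSC and CLP livers only (2180), 2399 with array weights and 866 on all probes of the series matrix. Leaving out 1 liver gave 0 to 2731, the highest without 107C. On the series matrix, an alternative chosen after seeing the data, leaving out 1 liver gave 5243 without 107C, 38 without 34C, 3 without 16M and 0 otherwise. Against 274 probes with separate arms, leaving out 1 liver gave 311 to 1967, with 445 without 34C, 425 without 16M and 423 without 100M; fewer livers separate more readily by construction. Against 30 list genes called, the count was 0 without a filter, 0 with 2 arms only, 50 with a floor of 7, 144 with array weights, and 0 to 158 with 1 liver left out. Organ differences for kidney, lung and heart (5, 191 and 0) were 1, 104 and 0 with no replicate block, and with 1 mouse left out ranged from 0 to 1026, 0 to 1476 and 0 to 463, each highest without 107C; lung gave 49 without 34C. No called probe named by rule changed direction with 1 liver left out; Hbb-bt, not called, went from -0.19 to 0.14 without 35C. The causes were not tested. Signal limits the precision where an arm lies under 6 log2 (Cyp7a1 and Nkg7 in both septic arms, Cav1, Esrrb, Them7, Clec4f and Tfpi in CLP livers, Cd74 on ILMN_1247832, Ddx31, Napsa, Il10 and Kdr in MSC livers, and Cxcl2, Il10, Them7, Napsa, Nkg7, Kdr, Camp, Ngp and Chil3 in sham livers) or near 16.03 at the top.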

Other observations

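Probes outside the rows used above were fitted on the series matrix, on whose own scale the levels here stand, where 435 of 10499 were called, 223 higher and 212 lower, and 2597 without the CLP liver of 107C. Among those with 1 gene symbol, the deepest fall with separate arms was in Aatf, a nucleolar factor (8.55 ± 0.34 in CLP and 7.20 ± 0.40 in MSC livers, difference -1.35, adjusted p 0.047). Cd274, which encodes the immune checkpoint ligand PD-L1, stood at 10.19 ± 0.63 and 8.95 ± 0.37 (difference -1.24, adjusted p 0.0477), with sham livers at 9.47. Rps15a (-1.20), the replication gene Mcm5 (-0.78) and Cdh5, the cadherin of endothelial junctions (-0.95), were lower without overlap, while Tek and 1 of the 2 tested Stab1 probes were higher.

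Second probes repeated called rises in Fads2 (1.72), Slco1b2 (3.46), Pck1 (2.17) and Ftcd (1.11), and a called fall in Heatr1 (-0.78). Those of Lcat (0.70, adjusted p 0.0792), Ndufb10 (0.57, adjusted p 0.067) and Rps13 (-0.39, adjusted p 0.248) were not called. The coagulation gene F11 was called higher without overlap on ILMN_1236044 (1.30, adjusted p 0.0477), from a CLP mean of 5.59 to 6.88. Its probe ILMN_3000236, which stood for F11 in the list, gave 1.06 and was not called (adjusted p 0.0727). Fads1, the other front-end desaturase of polyunsaturated fatty acids, stood at 12.004 ± 0.62 in CLP and 13.17 ± 0.14 in MSC livers (difference 1.17, adjusted p 0.0477) without overlap. Pmvk, of the mevalonate pathway, rose by 1.52, Amdhd1, of histidine breakdown, by 1.69, and Abcb4, the phospholipid exporter of bile, by 1.07. Nr1i2, the nuclear receptor PXR, rose by 0.997 without overlap, and Gsta2 was lower (difference -1.28), with a mean of 4.80 in MSC livers. Cd14, the lipopolysaccharide co-receptor, stood at 8.32 in sham, 15.09 in CLP and 13.51 in MSC livers without a call (adjusted p 0.0884), and Ccl4 at 10.03 and 8.20 (adjusted p 0.0583); both passed without 107C (adjusted p 0.00381 and 0.000586).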
